A study of Mus musculus with 4 samples.

Results

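The proteasome is the large protease of the cytosol and nucleus that degrades proteins tagged with ubiquitin. Its 20S core is a barrel built from outer rings of alpha subunits and inner rings of beta subunits, and 3 of the beta subunits, encoded by Psmb5, Psmb6 and Psmb7, carry the active sites. The 19S regulator caps the barrel, binds ubiquitin chains and unfolds substrates with a ring of ATPases, while other activators such as PA28 and PA200 open the same gate without ubiquitin. Peptides that the proteasome makes are loaded on MHC class I molecules, so dendritic cells depend on it to show antigen to CD8 T cells. In cells exposed to interferon or matured with microbial ligands, the active subunits are partly replaced by those of the immunoproteasome, encoded by Psmb8, Psmb9 and Psmb10.

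Expression of 45 proteasome genes was followed in 4 RNA-seq libraries, out of 18021 genes in the deposited table. The genes were taken by symbol: Psm, then a letter from a to g, then a digit. The 3 immunoproteasome subunit genes were left out, and a mean of at least 1 FPKM (fragments per kilobase of transcript, scaled to the fragments of the library) over the 4 libraries was required. Of 47 symbols that matched, Psma8, which encodes an alpha subunit of the testis, and Psmb11, which encodes a beta subunit of the thymus, averaged 0.70 and 0.49 FPKM and were not followed further. The symbol rule also took Psmc3ip, which encodes a cofactor of meiotic recombination and no part of the proteasome, and Psme2b, a copy of Psme2 on chromosome 11 between which and Psme2 reads could be split. That leaves 43 genes of subunits, assembly chaperones and regulators.

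All libraries came from dendritic cells grown from the bone marrow of C57BL/6 mice. The cells had 5 days of GM-CSF and IL4, then 100 ng/ml of the bacterial product LPS over 24 h to mature them, and received an siRNA. The groups were si-Lnc-Dpf3 with CCR7L for 12 h, si-Lnc-Dpf3 without stimulation (Med), si-NC with CCR7L for 12 h, and si-NC in Med. CCR7L stands for CCL19 and CCL21, the 2 chemokine ligands of the receptor CCR7, which guides mature dendritic cells to lymph nodes. si-Lnc-Dpf3 is directed at the long non-coding RNA lnc-Dpf3, which was not analysed here, so its depletion was not checked. Each group had 1 library, and the labels give no number, age or sex of the mice.

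Depth, read off the spacing of low FPKM values, was about 19650000 to 20400000 reads per library, and summed FPKM ran from 474610 to 500607. A transcript of the genes followed then rested on about 92 to 12580 reads in a library, with a median of 2728. The 95% counting limit on a ratio of 2 libraries lay between 1.03-fold and 1.31-fold depending on the gene. These limits cover counting error only. The lowest read number and the widest limit belonged to Psmc3ip, which is no part of the proteasome. All 12 markers of dendritic cells were present, with averages from 12.1 FPKM up to 2083.6 FPKM for Cd74, which ran from 1516 to 2500 FPKM. The 8 markers of T, B and NK cells summed to at most 4.70 FPKM. The 10 macrophage markers summed to 441.7 to 524.0 FPKM, and the 8 markers of mast cells and basophils to 543.6 to 631.2 FPKM. Neutrophil markers were present too, with sums over 14 genes of 13914 and 13784 FPKM in the si-Lnc-Dpf3 libraries, against 9726.5 and 9351.5 FPKM with si-NC. Most of each sum came from S100a8, at 3020 to 5022 FPKM, and S100a9, at 3670 to 5721 FPKM. The lowest of the 14 averaged 3.39 FPKM. In bulk RNA a different share of cells and a different amount of RNA per cell cannot be told apart.

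Transcripts of the 20S core stood at similar, high levels. The 7 alpha subunit genes averaged 102.4 to 198.1 FPKM over the 4 libraries, with a median of 140.5 FPKM, and the 7 constitutive beta subunit genes averaged 109.1 to 171.4 FPKM, with a median of 158.0 FPKM. The 6 ATPase genes of the 19S base, Psmc1 to Psmc6, averaged 65.7 to 97.0 FPKM, and the 11 other 19S subunit genes averaged 48.2 to 136.3 FPKM. FPKM is a value per length, so these levels are set side by side. Whether length or GC content still biased levels between genes was not checked. The 19S ATPases all lay below the lowest 20S subunit, Psma3, whereas of the other 19S genes Psmd8 at 136.3 FPKM and Psmd2 at 114.7 FPKM reached into the 20S range.

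The assembly chaperone genes among the 45 were expressed at lower levels than the subunit genes. Pomp, for a maturation factor of the core that the symbol rule does not take, measured 175.7 to 234.5 FPKM. Among the 20S assembly chaperones, which pair up to order the alpha ring, Psmg4 averaged 47.4 FPKM and Psmg1, Psmg2 and Psmg3 11.7, 12.0 and 14.6 FPKM. The 19S chaperone genes Psmd10 (gankyrin), Psmd5 and Psmd9 averaged 35.6, 27.0 and 9.43 FPKM. The regulators spanned the widest range of levels. Psme2 and Psme1, which encode the beta and alpha subunits of PA28, averaged 623.2 and 369.7 FPKM and were the most abundant transcripts of the 45, while Psme3, for the nuclear PA28 gamma, averaged 60.96, Psme4, for PA200, 21.1, and Psmf1, for the inhibitor PI31, 15.8 FPKM.

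**Figure D1:**
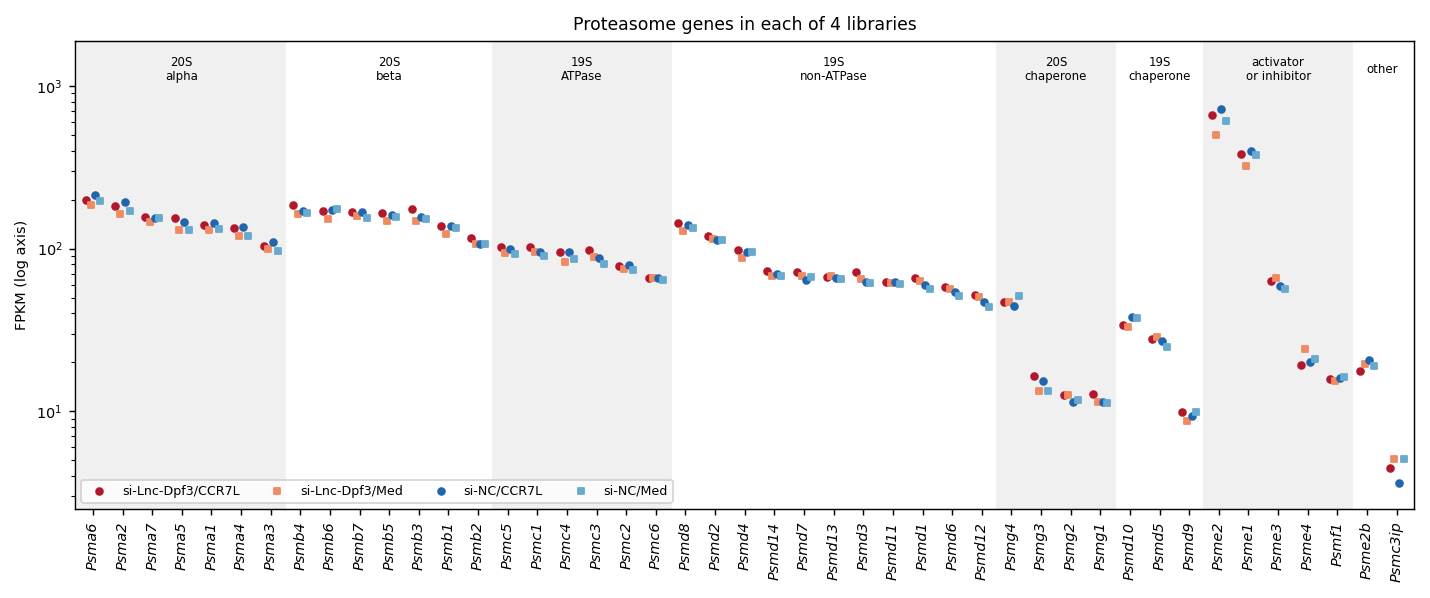
FPKM (log axis) of the 45 genes in each of the 4 libraries, grouped by role and ordered by mean level within a role; each symbol is 1 library. The 4 symbols of a gene lie close together, with a highest-to-lowest ratio of 1.03 to 1.45, while levels between genes run from 4.54 to 623.2 FPKM.

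Across the libraries each gene varied little. The ratio of its highest to its lowest FPKM was 1.03 to 1.45, with a median of 1.14, and the largest belonged to Psme2. The si-Lnc-Dpf3 library with CCR7L held the highest value for 22 of the 45 genes and the si-NC library with CCR7L for 14, against 5 for si-Lnc-Dpf3 in Med and 4 for si-NC in Med. Over all 11041 genes tested those libraries were highest for 22.3%, 18.3%, 35.6% and 23.8%. Summed over the 45 genes, FPKM was 4933 with CCR7L and 4406 in Med under si-Lnc-Dpf3, and 4932 with CCR7L and 4602 in Med under si-NC.

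The first comparison asked what CCR7 ligands did to proteasome transcripts. No gene of the 45 passed the test for the CCR7L effect averaged over both siRNAs (limma with siRNA and stimulation as additive factors, Benjamini-Hochberg adjusted p under 0.05 over 11041 genes), against 6.04% of all genes tested (2.93% higher and 3.11% lower). At an unadjusted p under 0.05 there were 6 higher and 2 lower, or 8 of 45, against 16.0% of all genes (7.64% higher and 8.41% lower). Under other settings 3 genes passed with median-ratio scaling, against 8.89% of all genes, 1 with equal totals (8.15%) 5 with the trend on transcript length and GC content removed (12.4%), of which 3 were higher (5.96%) and 2 lower (6.45%), and 1 with a pseudocount of 0.1 (6.44%). The test has 1 residual degree of freedom and sets each effect against the interaction and a spread borrowed across genes, not against replicate cultures. That borrowed spread is poorly fixed by 1 degree of freedom per gene: it counted as 9.63 prior degrees of freedom with FPKM as deposited, 14.2 with the length and GC trend removed, 42.3 with median-ratio scaling and an unlimited number with equal totals, and more of them give smaller p-values. The 95% intervals, which are not adjusted for the number of genes, had half-widths of 0.14 to 0.22 on the log2 scale, and 44 of 45 lay within 0.5 of 0, as did those of 93.1% of all genes, the exception being Psme2. No gene was as much as 2-fold apart between CCR7L and Med under either siRNA, against 0.48% of all genes under si-Lnc-Dpf3 and 0.453% under si-NC.

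Small positive ratios nevertheless prevailed. Average log2 ratios of CCR7L over Med were above 0 for 40 of 45 genes, against 42.7% of all genes tested. Psmc3ip and Psme2b were both below 0, which leaves 40 of the 43 other genes above it. The median ratio over the 45 genes was 0.077, against -0.02 over all genes. Taken by siRNA, the median was 0.10 under si-Lnc-Dpf3, where 37 genes lay above 0 (44.3% of all genes), and 0.051 under si-NC, where 36 did (46.1%), and 31 genes lay above 0 under both, against 25.1% of all genes. These comparisons share no library. The count above 0 depended on the scaling: it was 42 (50.2% of all genes) with median-ratio scaling, 32 (30.5%) with columns brought to equal totals and 33 (41.2%) without the length and GC trend. The median transcript of the 45 genes was 1410 bases long, against 2819 bases for all genes tested.

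**Figure D2:**
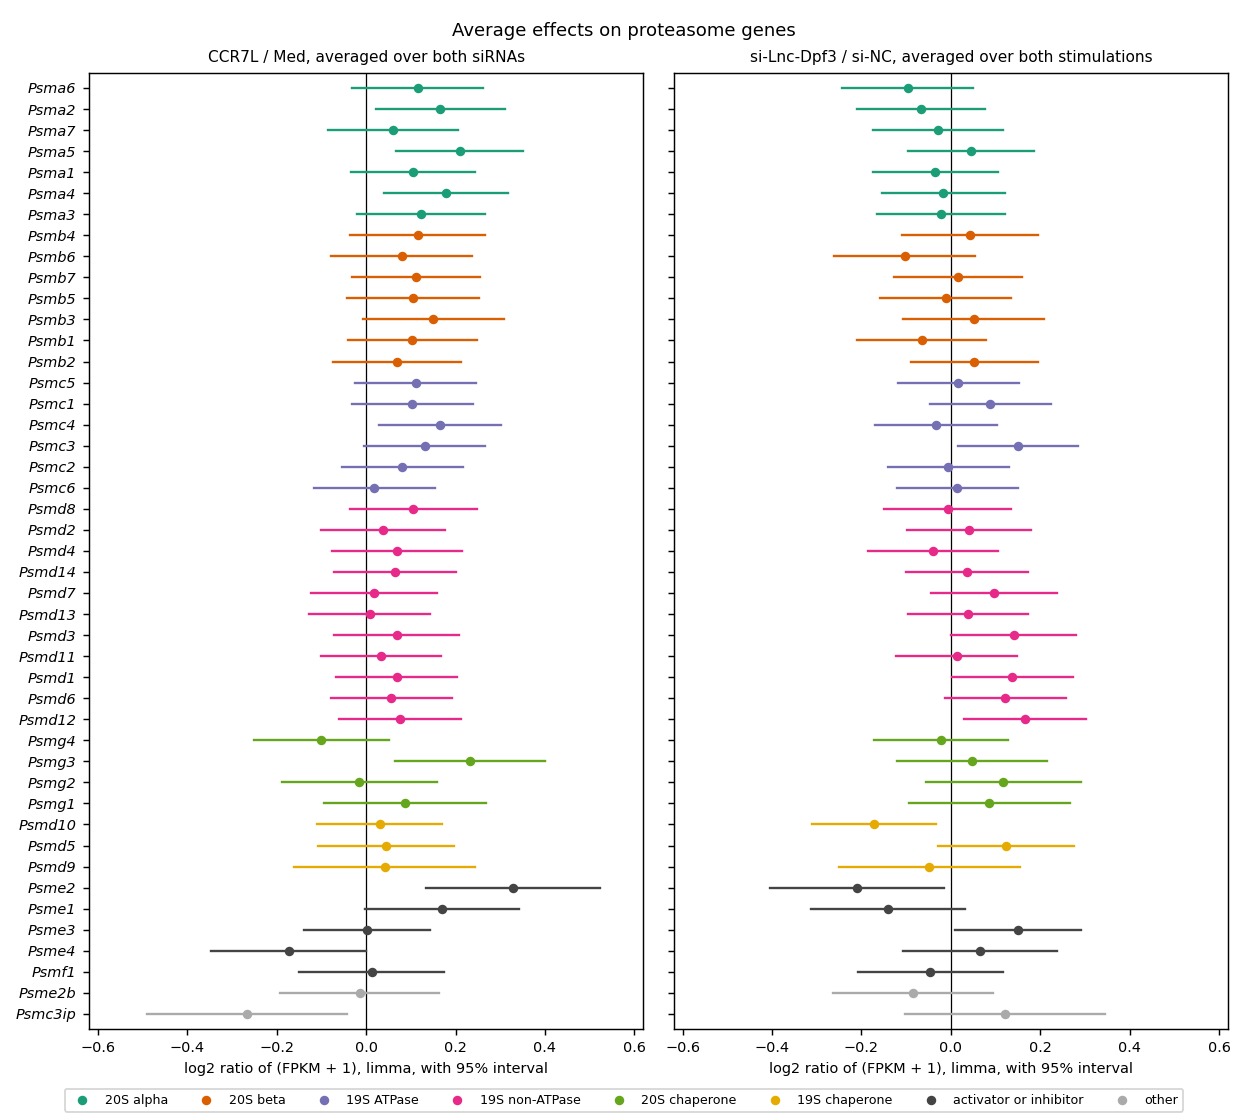
Average log2 ratios for CCR7L over Med (left) and si-Lnc-Dpf3 over si-NC (right), from limma's additive model on log2(FPKM + 1), with 95% intervals, for each of the 45 genes coloured by role. On the left 40 points lie right of 0, with Psme2 farthest out at 0.33; on the right the points fall on both sides, from -0.21 for Psme2 to 0.17 for Psmd12.

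All 14 subunit genes of the 20S core and all 17 of the 19S regulator had average ratios above 0, against 42.7% of all genes. The log2 ratios of these 31 lay between 0.008 and 0.21, and none passed, against 6.04% of all genes. The count above 0 stayed at 31 with median-ratio scaling (50.2% of all genes). It was 26 with equal totals (30.5%) and 26 without the length and GC trend (41.2%). Alpha ring genes had the highest median of the large groups, 0.12, followed by 0.11 for the 19S ATPases and 0.10 for the beta ring, while the other 19S subunits had 0.064. Ratios of the 7 alpha genes were above 0 under both siRNAs. For the 7 beta genes that held for 6, since Psmb6 had a log2 ratio of 0.18 under si-Lnc-Dpf3 and -0.019 under si-NC. It held for 5 of the 6 ATPase genes and 8 of the 11 other 19S genes. In all 26 of the 31 genes were above 0 under both siRNAs, against 25.1% of all genes tested.

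Psma5, on chromosome 3 (108256926 to 108279952, GRCm38.p6), encodes the alpha5 subunit and had the highest ratio of the core. It measured 154.9 FPKM with CCR7L and 130.8 FPKM in Med under si-Lnc-Dpf3, and 146.7 FPKM with CCR7L and 129.6 FPKM in Med under si-NC. Both CCR7L libraries lay above both Med libraries. Groups ordered like this, in either direction, are said below not to overlap. With so few libraries that order can arise by chance. Its share over all genes tested was not counted, so it describes the values and adds no evidence to the test. The average log2 ratio was 0.21 ± 0.06 (SE) and did not pass (limma adjusted p = 0.097, interval 0.068 to 0.35); with median-ratio scaling the adjusted p was 0.037, and without the length and GC trend 0.019 at a ratio of 0.15.

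Psma4, for alpha3, measured 134.8 FPKM with CCR7L and 119.2 FPKM in Med under si-Lnc-Dpf3, and 136.5 FPKM with CCR7L and 120.4 FPKM in Med under si-NC. Psma2, for alpha2, measured 183.4 FPKM with CCR7L and 163.4 FPKM in Med under si-Lnc-Dpf3, and 192.1 FPKM with CCR7L and 171.1 FPKM in Med under si-NC. For both genes the groups did not overlap and the ratio was nearly the same under each siRNA, 0.18 and 0.18 for Psma4 and 0.17 and 0.17 for Psma2. Their average log2 ratios of 0.18 ± 0.06 and 0.17 ± 0.07 (SE) did not pass (limma adjusted p = 0.16 and 0.23), and Psma2 had an adjusted p of 0.016 without the length and GC trend. The remaining alpha genes had ratios from 0.060 for Psma7 to 0.12 for Psma3.

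None of the active-site genes of the constitutive core passed. Psmb5, for the chymotrypsin-like subunit beta5, measured 166.4 FPKM with CCR7L and 148.6 FPKM in Med under si-Lnc-Dpf3, and 161.2 FPKM with CCR7L and 156.0 FPKM in Med under si-NC. Psmb6, for the caspase-like beta1, measured 171.2 FPKM with CCR7L and 151.1 FPKM in Med under si-Lnc-Dpf3, and 171.7 FPKM with CCR7L and 174.0 FPKM in Med under si-NC. Psmb7, for the trypsin-like beta2, measured 167.6 FPKM with CCR7L and 158.0 FPKM in Med under si-Lnc-Dpf3, and 168.7 FPKM with CCR7L and 153.3 FPKM in Med under si-NC. The groups did not overlap for Psmb5 and Psmb7 and did for Psmb6, where si-NC in Med was the highest of the 4. Their average log2 ratios of 0.10, 0.080 and 0.11 did not pass (limma adjusted p = 0.51, 0.67 and 0.47), and the largest ratio among beta genes was 0.15 ± 0.07 (SE) for the structural subunit gene Psmb3.

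Of the 3 immunoproteasome genes, 2 passed as higher for CCR7L, against 2.93% of all genes tested. Psmb8 and Psmb9 rose with CCR7L by 0.33 ± 0.08 and 0.34 ± 0.08 on the log2 scale (SE, limma adjusted p = 0.036 and 0.025), whereas Psmb10 had a ratio of 0.097 ± 0.08 (adjusted p = 0.61). Within a library, where scaling cancels, the FPKM of Psmb8 divided by that of Psmb5, which it replaces, was 2.52 with CCR7L and 2.11 in Med under si-Lnc-Dpf3, and 2.70 with CCR7L and 2.37 in Med under si-NC. Psmb9 over Psmb6 was 1.40 with CCR7L and 1.15 in Med under si-Lnc-Dpf3, and 1.49 with CCR7L and 1.26 in Med under si-NC. Both ratios were higher with CCR7L under each siRNA, while Psmb10 over Psmb7 was 0.89 with CCR7L and 0.80 in Med under si-Lnc-Dpf3 but 0.88 with CCR7L and 0.99 in Med under si-NC. The 2 calls were lost without a filter on low genes (adjusted p = 0.44 and 0.45), without the mean-variance trend (0.081 and 0.087) and in a fit with stimulation alone (0.30 and 0.34), and each was lost whichever 1 of the 4 libraries was left out of that fit. With 1 library left out Psmb8 ran from 0.21, without si-Lnc-Dpf3 in Med, to 0.45, without si-NC in Med, and Psmb9 from 0.18 to 0.50 without the same libraries.

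Of the PA28 genes, Psme2 came nearest to the threshold. Psme2 lies on chromosome 14 (55587440 to 55591101) and Psme1 beside it (55578494 to 55581527, GRCm38.p6), 5913 bases apart. PA28 alpha and beta form the heptameric ring that interferon gamma is known to induce together with the immunoproteasome. RefSeq promoters of the pair, 250 bases before to 50 after the start, are shown 5′ to 3′ because these genes had the highest levels and Psme2 the highest CCR7L ratio of the 45. Capitals mark GAAA, any 2 bases and GAAA, searched on either strand, the core of the interferon response element; Psme1 holds 1 match, read here as its reverse complement, that begins 9 bases after the start, and these letters were not found in the 300 bases shown for Psme2 or in its other RefSeq entry.
Psme1 (chr14:55578244-55578543, plus strand): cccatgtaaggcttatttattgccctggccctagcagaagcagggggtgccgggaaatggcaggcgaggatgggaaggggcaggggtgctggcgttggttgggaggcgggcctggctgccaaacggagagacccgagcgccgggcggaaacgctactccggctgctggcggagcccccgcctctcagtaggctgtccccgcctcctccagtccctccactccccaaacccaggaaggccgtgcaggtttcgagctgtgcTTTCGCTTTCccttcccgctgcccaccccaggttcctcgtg
Psme2 (chr14:55591052-55591351, minus strand): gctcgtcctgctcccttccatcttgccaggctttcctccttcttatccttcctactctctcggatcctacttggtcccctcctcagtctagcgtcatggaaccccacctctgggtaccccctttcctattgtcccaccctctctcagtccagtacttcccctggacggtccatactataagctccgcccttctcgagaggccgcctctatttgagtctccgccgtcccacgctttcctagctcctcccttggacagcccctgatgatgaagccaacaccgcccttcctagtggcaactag

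Psme2 measured 660.2 FPKM with CCR7L and 499.1 FPKM in Med under si-Lnc-Dpf3, and 725.5 FPKM with CCR7L and 608.1 FPKM in Med under si-NC. Both CCR7L libraries lay above both Med libraries, and the si-Lnc-Dpf3 library in Med was the lowest. The average log2 ratio was 0.33 ± 0.09 (SE, interval 0.13 to 0.52), just short of the threshold (limma adjusted p = 0.056). It passed with a pseudocount of 0.1 (adjusted p = 0.041), median-ratio scaling (0.019), equal totals (1.24e-04) and the length and GC trend removed (4.15e-04, at a ratio of 0.25), and did not without the mean-variance trend (0.074), at a mean of at least 5 FPKM (0.060), without a filter on low genes (0.44) or in a fit with stimulation alone (0.43). With 1 library left out of that last fit the ratio ran from 0.19, without si-Lnc-Dpf3 in Med, to 0.47, without si-NC in Med.

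Psme1 measured 382.2 FPKM with CCR7L and 322.2 FPKM in Med under si-Lnc-Dpf3, and 400.1 FPKM with CCR7L and 374.4 FPKM in Med under si-NC. Its groups did not overlap either, yet the average log2 ratio of 0.17 ± 0.08 (SE) did not pass (limma adjusted p = 0.32). FPKM of Psme2 divided by that of Psme1 was 1.73 with CCR7L and 1.55 in Med under si-Lnc-Dpf3, and 1.81 with CCR7L and 1.62 in Med under si-NC. That quotient was higher in the CCR7L library under each siRNA. Psme2b, the copy on chromosome 11, measured 17.6 FPKM with CCR7L and 19.6 FPKM in Med under si-Lnc-Dpf3, and 20.6 FPKM with CCR7L and 18.9 FPKM in Med under si-NC, and showed no common direction.

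**Figure D3:**
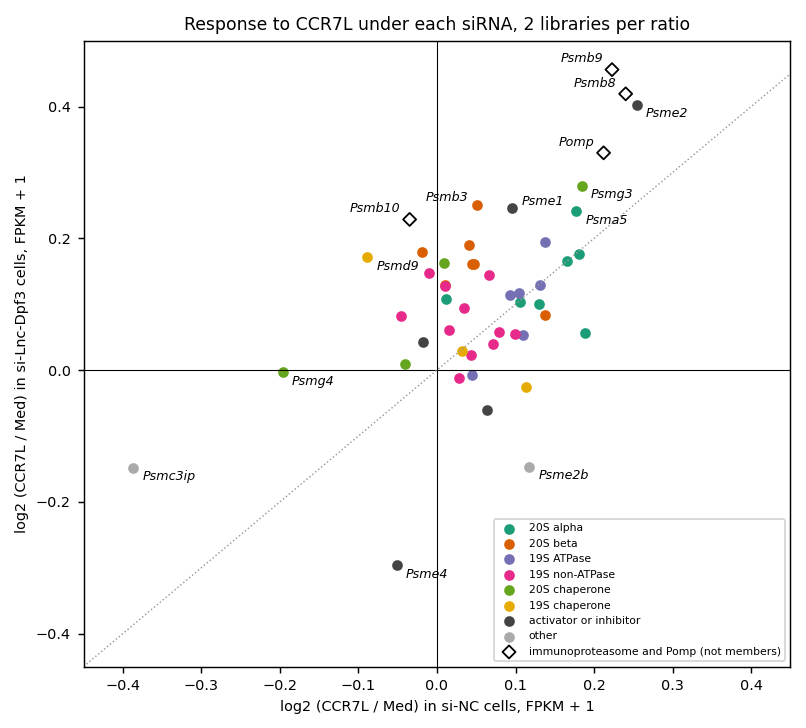
Log2 ratio of CCR7L over Med, on FPKM + 1, in si-NC cells (x axis) and in si-Lnc-Dpf3 cells (y axis) for the 45 genes coloured by role, with Psmb8, Psmb9, Psmb10 and Pomp as open diamonds; each ratio rests on 2 libraries and the dotted line marks equal ratios. Psme2 sits with Psmb8, Psmb9 and Pomp in the upper right, at 0.25 and 0.40, and the core and 19S genes gather between -0.045 and 0.25.

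None of the other regulators passed. Psme4, whose product PA200 acts in the nucleus, measured 19.3 FPKM with CCR7L and 24.0 FPKM in Med under si-Lnc-Dpf3, and 20.2 FPKM with CCR7L and 20.9 FPKM in Med under si-NC. It had the lowest ratio of the regulators, -0.17 ± 0.08 (SE, limma adjusted p = 0.31), set mainly by the si-Lnc-Dpf3 library in Med. Psme3 and Psmf1 had ratios of 0.002 and 0.012, with intervals of -0.14 to 0.14 and -0.15 to 0.18. The recombination factor gene Psmc3ip, at 4.46 FPKM with CCR7L and 5.05 FPKM in Med under si-Lnc-Dpf3, and 3.62 FPKM with CCR7L and 5.04 FPKM in Med under si-NC, had the lowest ratio of all 45 (-0.27 ± 0.10, limma adjusted p = 0.20).

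None of the assembly factors passed, and their ratios lay on both sides of 0. Psmg3 measured 16.5 FPKM with CCR7L and 13.4 FPKM in Med under si-Lnc-Dpf3, and 15.3 FPKM with CCR7L and 13.4 FPKM in Med under si-NC. Its average log2 ratio of 0.23 ± 0.08 (SE) was the second highest of the 45 and did not pass (limma adjusted p = 0.12), though it did with median-ratio scaling (0.036). Psmg4, for its partner in the same chaperone pair, measured 47.0 FPKM with CCR7L and 47.1 FPKM in Med under si-Lnc-Dpf3, and 44.5 FPKM with CCR7L and 51.2 FPKM in Med under si-NC. For Psmg4 the ratio was -0.10 ± 0.07 (SE, limma adjusted p = 0.55) and it did not pass, but was -0.21 with an adjusted p of 0.0046 without the length and GC trend; its transcript of 514 bases was the shortest of the 45. Psmg2, for the partner of Psmg1, measured 12.6 FPKM with CCR7L and 12.5 FPKM in Med under si-Lnc-Dpf3, and 11.3 FPKM with CCR7L and 11.7 FPKM in Med under si-NC, a ratio of -0.015 with an interval of -0.19 to 0.16.

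Pomp, the maturation factor of the 20S core, which interferon gamma is known to induce and which the symbol rule does not take, rose with CCR7L by 0.27 ± 0.07 (SE, limma adjusted p = 0.044). It measured 221.1 FPKM with CCR7L and 175.7 FPKM in Med under si-Lnc-Dpf3, and 234.5 FPKM with CCR7L and 202.3 FPKM in Med under si-NC, and the groups did not overlap. Of the 9 measured proteasome proteins with other symbols 1 rose and 0 fell, against 2.93% and 3.11% of all genes tested. Their median was 0.022. The ubiquitin receptor gene Adrm1 had a ratio of 0.022 and the deubiquitinase genes Usp14 and Uchl5 0.053 and 0.045. The Pomp call was lost without a filter on low genes (adjusted p = 0.42), without the mean-variance trend (0.13), in a fit with stimulation alone (0.37), and whichever library was left out of it, with ratios from 0.17, without si-Lnc-Dpf3 in Med, to 0.37, without si-NC in Med.

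Of 14 ubiquitin, ubiquitin-activating, shuttle and VCP genes 0 rose and 0 fell in limma, against 2.93% and 3.11% of all genes. Their median ratio was 0.021, with a range of -0.17 to 0.14. The highest ratio was that of Vcp, for the unfolding ATPase p97, and Ubb, which encodes polyubiquitin, had 0.062. Of 6 tested genes that govern proteasome transcription 0 rose and 1 fell, against the same shares. The gene was Stat3, at -0.30 ± 0.06 on the log2 scale (SE, limma adjusted p = 0.016). That call too was lost without a filter on low genes, without the mean-variance trend and in a fit with stimulation alone (adjusted p = 0.21). It was also lost whichever library was left out of that last fit. Nfe2l1, whose product is known to activate proteasome genes when proteasome activity is short, measured 81.7 FPKM with CCR7L and 78.9 FPKM in Med under si-Lnc-Dpf3, and 86.0 FPKM with CCR7L and 79.8 FPKM in Med under si-NC. Its average ratio was 0.078 (limma adjusted p = 0.62).

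Promoters of 38 of the 45 genes had a RefSeq entry (GRCm38.p6). TGACNNNGC, the core of the antioxidant response element through which NFE2L1 is known to act, occurred on either strand in 6 of 38, or 15.8%, against 17.2% of 8942 genes tested that had an entry. The interferon element core occurred in 5 of 38, or 13.2%, against 4.1%; the genes were Psme1, Psmb3, Psmd4, Psmd9 and Psmg4, with CCR7L ratios of 0.17, 0.15, 0.068, 0.042 and -0.10. CCGGAAG, an ETS motif, occurred in 15 of 38 (39.5%, against 21.7%), CCAAT in 13 (34.2%, against 43.4%), GCGC, any 2 bases and GCGC, an NRF1 motif, in 7 (18.4%, against 15.6%) and CACGTG, the E-box, in 3 (7.9%, against 12.0%). These shares describe 300-base windows and are not tests, and a match is not a bound site. The promoters of the catalytic genes Psmb5 and Psmb6 are shown as examples, with the TGACNNNGC match in capitals; it begins 47 bases before the start in Psmb5 and 9 before it in Psmb6.
Psmb5 (chr14:54617946-54618245, minus strand): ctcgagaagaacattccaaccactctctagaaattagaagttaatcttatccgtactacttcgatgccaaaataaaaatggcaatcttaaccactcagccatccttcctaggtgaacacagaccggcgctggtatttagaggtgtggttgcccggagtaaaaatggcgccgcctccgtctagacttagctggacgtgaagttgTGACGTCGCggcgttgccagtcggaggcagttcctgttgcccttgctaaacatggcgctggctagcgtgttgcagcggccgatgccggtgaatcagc
Psmb6 (chr11:70525107-70525406, plus strand): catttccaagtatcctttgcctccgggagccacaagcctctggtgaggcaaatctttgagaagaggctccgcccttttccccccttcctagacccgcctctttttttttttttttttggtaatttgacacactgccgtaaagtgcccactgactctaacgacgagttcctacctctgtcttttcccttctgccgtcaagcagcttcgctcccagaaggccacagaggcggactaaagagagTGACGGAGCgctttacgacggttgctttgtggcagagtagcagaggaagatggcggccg

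The second comparison asked what si-Lnc-Dpf3 did. Again no gene of the 45 passed in the effect averaged over both stimulations (limma, adjusted p under 0.05), against 4.37% of all genes (2.33% higher and 2.04% lower). At an unadjusted p under 0.05 there were 5 higher and 2 lower, or 7 of 45, against 17.5% (9.85% higher and 7.6% lower). None passed with median-ratio scaling (7.78% of all genes), 1 with equal totals (7.7%) and 7 without the length and GC trend (16.0%). All 45 intervals lay within 0.5 of 0 on the log2 scale, as did those of 94.2% of all genes. The median log2 ratio of si-Lnc-Dpf3 over si-NC was 0.017, against 0.015 over all genes. It was above 0 for 25 of 45 genes, against 55.1%, and 21 (47.2%) with median-ratio scaling, 29 (60.5%) with equal totals and 33 (54.6%) without the length and GC trend. Single comparisons had 28 genes above 0 with CCR7L (52.4% of all genes) and 24 in Med (54.3%). No gene was 2-fold apart with CCR7L or in Med, against 0.0725% and 0.0906% of all genes.

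Within the particle the ratios are given by role. Of the 11 non-ATPase genes of the 19S regulator 9 had ratios above 0 in both stimulations, with a median of 0.041, while of the 7 alpha genes 1 did and 4 were below 0 in both, with a median of -0.029. Over all genes 34.2% were above 0 in both and 27.0% below 0 in both. The alpha ring median took the opposite sign, 0.020, without the length and GC trend, and no difference between the groups was tested.

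Psmd12, a lid subunit gene, had the highest ratio. It measured 52.0 FPKM under si-Lnc-Dpf3 and 47.0 FPKM under si-NC with CCR7L, and 50.02 FPKM under si-Lnc-Dpf3 and 43.8 FPKM under si-NC in Med. Psmc3, for a 19S ATPase, measured 97.5 FPKM under si-Lnc-Dpf3 and 87.9 FPKM under si-NC with CCR7L, and 89.1 FPKM under si-Lnc-Dpf3 and 80.1 FPKM under si-NC in Med. Both si-Lnc-Dpf3 libraries lay above both si-NC libraries for each gene. For the siRNA too, the share of all genes ordered like this was not counted, so the order is a description only. Average log2 ratios of 0.17 ± 0.06 and 0.15 ± 0.06 (SE) did not pass (limma adjusted p = 0.18 and 0.23).

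Psme3, for PA28 gamma, and the 19S base and lid genes Psmd1 and Psmd3 came next. Psme3 measured 62.8 FPKM under si-Lnc-Dpf3 and 59.0 FPKM under si-NC with CCR7L, and 65.5 FPKM under si-Lnc-Dpf3 and 56.5 FPKM under si-NC in Med. Psmd3 measured 71.3 FPKM under si-Lnc-Dpf3 and 62 FPKM under si-NC with CCR7L, and 65.2 FPKM under si-Lnc-Dpf3 and 61.6 FPKM under si-NC in Med. Psmd1 measured 65.7 FPKM under si-Lnc-Dpf3 and 60.04 FPKM under si-NC with CCR7L, and 63.1 FPKM under si-Lnc-Dpf3 and 56.8 FPKM under si-NC in Med. In each of these the si-Lnc-Dpf3 libraries were both above the si-NC libraries, at average log2 ratios of 0.15, 0.14 and 0.14 that did not pass (limma adjusted p = 0.25, 0.28 and 0.27). With the length and GC trend removed 6 of the 45 passed as higher, Psmc3, Psmd1, Psmd3, Psmd6, Psmd12 and Psme3, at ratios from 0.13 to 0.19, against 9.45% of all genes, and 1 as lower, against 6.54%.

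At the low end stood Psme2 and Psmd10. Psme2 measured 660.2 FPKM under si-Lnc-Dpf3 and 725.5 FPKM under si-NC with CCR7L, and 499.1 FPKM under si-Lnc-Dpf3 and 608.1 FPKM under si-NC in Med. Within each stimulation the si-Lnc-Dpf3 library was the lower one, but the groups overlapped when the stimulations were pooled. Its average log2 ratio of -0.21 ± 0.09 (SE) did not pass (limma adjusted p = 0.24), and did with equal totals (-0.19, adjusted p = 0.031) and without the length and GC trend (-0.16, 0.015).

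Psmd10, for the oncoprotein gankyrin, measured 33.8 FPKM under si-Lnc-Dpf3 and 38.2 FPKM under si-NC with CCR7L, and 33.1 FPKM under si-Lnc-Dpf3 and 37.4 FPKM under si-NC in Med. Here both si-Lnc-Dpf3 libraries lay below both si-NC libraries, and the ratio was the same in each stimulation, -0.17 and -0.17. The average of -0.17 ± 0.06 (SE) had the smallest adjusted p of the 45 in this comparison (limma adjusted p = 0.18). Psmb8, Psmb9 and Psmb10 had ratios of -0.15, -0.21 and -0.13, none of which passed (limma adjusted p = 0.38, 0.17 and 0.42), though Psmb9 did with equal totals (0.030) and both Psmb8 (0.028) and Psmb9 (0.0050) did without the length and GC trend.

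Psme1, Psmb6 and Psma6 had the next lowest ratios, -0.14 ± 0.08, -0.10 ± 0.07 and -0.097 ± 0.07 (SE), and did not pass (limma adjusted p = 0.39, 0.51 and 0.50). Psma6, for the alpha1 subunit, measured 198.1 FPKM under si-Lnc-Dpf3 and 214.1 FPKM under si-NC with CCR7L, and 184.7 FPKM under si-Lnc-Dpf3 and 195.6 FPKM under si-NC in Med. Its si-Lnc-Dpf3 library with CCR7L lay above si-NC in Med, so the groups overlapped.

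Markers of other cells and of division moved with the siRNA. Of 14 neutrophil markers 7 rose and 0 fell with si-Lnc-Dpf3 (limma, adjusted p under 0.05), against 2.33% of all genes higher and 2.04% lower. Their median was 0.60, and none was listed at 0 in all libraries. S100a8 and S100a9, which made up most of the neutrophil sums, did not pass (limma adjusted p = 0.054 and 0.099). Of 19 cell cycle genes 14 rose and 0 fell, with a median of 0.33. Their sums were 713.3 and 768.9 FPKM in the si-Lnc-Dpf3 libraries, against 599.8 and 595.6 FPKM with si-NC. In a fit with the siRNA alone 0 of all 11041 genes passed as higher, so the neutrophil and cell cycle calls were lost there. Of 12 dendritic cell markers 0 rose and 3 fell, of 9 tested macrophage markers 0 rose and 2 fell, and of 7 tested mast cell and basophil markers 0 rose and 1 fell. With CCR7L 0 of 14 neutrophil markers and 0 of 19 cell cycle genes passed. Of the 12 dendritic cell markers 4 rose and 3 fell with CCR7L, against 2.93% and 3.11% of all genes. The part of all these markers in the proteasome ratios was not tested.

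**Figure D4:**
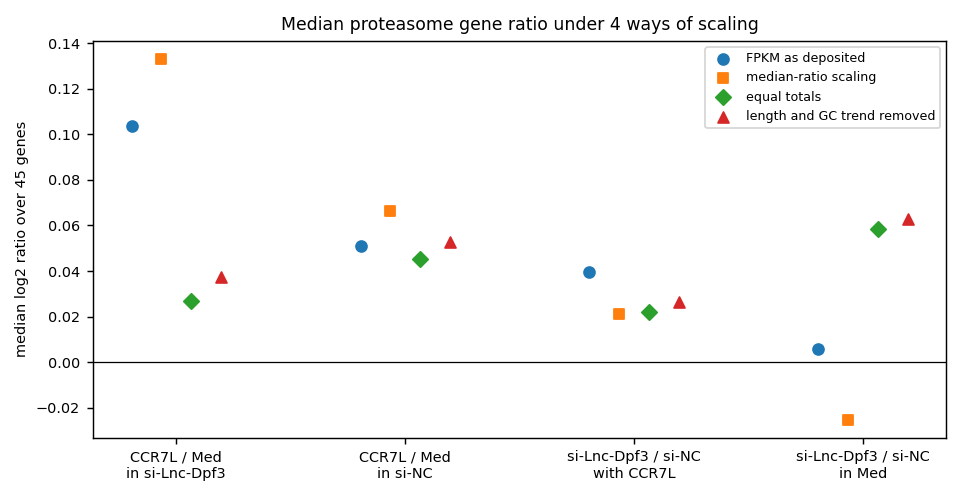
Median log2 ratio over the 45 genes in the 4 comparisons of 2 libraries, with FPKM as deposited and under 3 other ways of treating the values. For CCR7L all medians lie above 0, from 0.027 to 0.13; for si-Lnc-Dpf3 in Med they run from -0.025 to 0.063.

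Whether the CCR7L response differed between the siRNAs was not tested, since the interaction is the model's residual. The log2 ratio under si-Lnc-Dpf3 minus that under si-NC had a median of 0.050 and was above 0 for 26 of 45 genes, against 48.5% of all genes tested. The beta ring genes had a median CCR7L ratio of 0.16 under si-Lnc-Dpf3 and 0.045 under si-NC, and the alpha ring genes 0.11 under si-Lnc-Dpf3 and 0.17 under si-NC. Equal totals lowered the median over the 45 genes to 0.027 under si-Lnc-Dpf3 and 0.045 under si-NC, so which siRNA had the higher median turned with the scaling, as the plot of medians by scaling shows.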

How the data were processed

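RNA of the 4 libraries was extracted with TRIzol and sequenced on the BGISEQ-500, per the labels' protocols. The authors deposited 1 table of FPKM values with 2 decimals, per the file headers. Bowtie2, RSEM and the build GRCm38 appear in the submitters' processing notes; no versions are stated there. Column names abbreviate the siRNA (nc, si) and the stimulation (un, tr), and groups were read from them. Entrez numbers linked 17892 of 18021 rows to RefSeq (GRCm38.p6). Between 53.6% and 59.0% of low values fell within 0.1 of a whole read at the estimated depth, against 20% by chance at a depth fixed beforehand. The depth was the one that made this share highest, so 20% is too low a baseline. Whole reads were not recovered, so no count test was run and the read numbers given above are approximate.

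Log2(FPKM + 1), a scale that understates ratios of low genes, was fitted with limma 3.58.1 (R 4.3.3) for 11041 genes of mean FPKM 1 or more. The model had additive factors and a mean-variance trend (prior degrees of freedom, median 9.63). Tested on simulated data, the fit missed most log2 changes of 0.25 or less. The share of false calls was above its nominal rate in most of the runs, by the widest margin at such changes. Calls of about that size are therefore less secure than their adjusted p. The simulated noise was independent between genes, with no shift shared within a library. Ratios of 2 libraries carry no test. Transcript length and GC content were available for 10863 of the genes tested. Alternatives were other scalings, pseudocounts and filters, removal of the length and GC trend, a fit without the mean-variance trend, 1 factor only, and each library left out. Every one of the 45 genes could be named, since they are the subject, along with the immunoproteasome genes and list genes that passed. Adrm1, Usp14, Uchl5, Ubb, Vcp, Nfe2l1, Cd74, S100a8 and S100a9 were named after their values were seen. Genes, lists and motifs were chosen with earlier results of these data known.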

Additional observations from a re-analysis of the deposited data

How the results depend on the processing

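Of the 45 genes 0 were called for CCR7L with FPKM as deposited. The count was 1, Psme2, with a pseudocount of 0.1 (6.44% of all genes) and with equal totals (8.15%). With median-ratio scaling it was 3 (8.89%), with Psma5, Psme2 and Psmg3 higher. Without the length and GC trend it was 5 (12.4%). Of these Psma2, Psma5 and Psme2 were higher, and Psmg4 and Psmc3ip, which is no part of the proteasome, were lower. For si-Lnc-Dpf3 the count, 0 as deposited, was 1 with equal totals (Psme2) and 7 without that trend. Both counts were 0 without a filter on low genes and at a mean of at least 5 FPKM. They were also 0 without the mean-variance trend and with 1 factor only. Without the mean-variance trend 219 genes of all 11041 were called higher and 263 lower for CCR7L, and 43 and 34 for si-Lnc-Dpf3. With 1 factor only the numbers were 102 and 136 for CCR7L, and 0 and 1 for si-Lnc-Dpf3. So few calls leave a count of 0 for si-Lnc-Dpf3 uninformative about the 45 genes. With 1 library left out of the 1-factor fit, 1 side holds 1 library and only ratios are given here. The median CCR7L ratio of 0.077 became 0.036 with equal totals, 0.051 to 0.10 in the pair of libraries that stays matched when 1 is left out, and 0.054 to 0.098 in the 1-factor fit without it; that of si-Lnc-Dpf3, 0.017, became -0.009 with median-ratio scaling, 0.045 without the length and GC trend, 0.006 to 0.040 in the matched pair and -0.032 to 0.063 in the 1-factor fit, so its sign turned with the library left out. The cause of these shifts was not tested. No gene of the 45 was 2-fold apart in any comparison under the 6 alternatives run for it. Without a filter on low genes no gene of all 18021 was called in either comparison, and 2036 (CCR7L) and 1939 (si-Lnc-Dpf3) had an unadjusted p under 0.05. With 1 library per group the spread between cultures is unknown. No paired analysis was possible because each group holds 1 library and shares fewer than 2 replicate numbers with another; the additive fit already compares CCR7L with Med within each siRNA and si-Lnc-Dpf3 with si-NC within each stimulation, and the fit with 1 factor is the one without that block.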
